A study of Mus musculus with 10 samples.

Results

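The B cell lineage and receptor genes described here are Cd79a, Cd79b, Ms4a1, Cd22, Cr2, Fcer2a, Blk, Pax5 and Ebf1, taken by gene name, 9 of the 54987 genes in the deposited table. Their RNA was followed in lymph nodes from behind the knee (popliteal), where lymph of the paw arrives, in male BALB/c mice aged 6 to 8 weeks, taken at day 15. Control (n = 3, libraries 15, 16 and 17) was given saline under the skin of the paw. AIA (n = 4, libraries 5, 10, 31 and 38) was given 0.1 ml of complete Freund's adjuvant in the right hind paw, an oil emulsion of killed mycobacteria that causes arthritis. Acu (n = 3, libraries 4, 6 and 28) was given the same adjuvant plus acupuncture at ST36, a point below the knee named in the series title. No transgene or gene deletion is named for any group. A sham acupuncture group that the protocols mention was not analysed here. Nothing in the labels ties a library to a mouse of its own, so the p-values measure only the spread between these libraries, which may be technical.

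B cells recognise antigen through the B cell receptor, a membrane immunoglobulin that signals through the paired chains CD79A and CD79B. Coreceptors on the surface raise or damp that signal, kinases of the Src family such as BLK carry it inward, and the transcription factors EBF1 and PAX5 set up and hold the B cell program. In a resting lymph node B cells fill the follicles of the cortex, and after immunization a part of them forms germinal centres and plasma cells, which switch off PAX5 and many B cell surface genes.

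In the deposited coordinates, which carry the build mm10 per the submitters' processing notes, Cd79a lies on chromosome 7 at 24897381 to 24902197 and Cd22 on the same chromosome at 30865402 to 30880342. Cd79b and Ebf1 share chromosome 11, at 106311341 to 106314762 and at 44617317 to 45008091. Ms4a1 is on chromosome 19 (11249675 to 11266241), Cr2 on chromosome 1 (195136811 to 195176716) and Fcer2a on chromosome 8 (3681737 to 3694175). Blk is on chromosome 14 (63372836 to 63417037) and Pax5 on chromosome 4 (44524757 to 44710487). All 9 are protein coding, and the deposited gene lengths run from 1431 bases for Cd79b to 9756 bases for Ebf1. Ms4a1, Cd22, Pax5 and Ebf1 each overlap a gene annotated as antisense, and the strand setting of the read counting is not given in the sources used. The 4 antisense genes were listed at no more than 0.553 FPKM (Gm12158, inside Ebf1, in Acu 28). Mir5120 inside Pax5, 78 bases long, was above 0 only in Control 16 (0.830 FPKM), AIA 31 (3.61 FPKM), Acu 6 (2.53 FPKM) and Acu 28 (10.9 FPKM).

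RefSeq promoters of build GRCm38.p6, which share coordinates with mm10, were held for 6 of the 9 genes (9 start sites). Ms4a1, Cd79b and Blk had no entry. The 4 promoters below are shown because they hold motif matches and stand for the roles described in the following paragraphs, with Cd79a for the receptor chains, Cd22 and Cr2 for the coreceptors and Ebf1 for the transcription factors. Each runs from 250 bases before the start site to 50 bases after it, in the direction of transcription. Capitals mark matches on either strand to an EBF core (CCCNNGGG), a PU.1-type ETS motif (GAGGAA) or an E box (CAGGTG).
Cd79a, chr7:24897247-24897546, plus strand: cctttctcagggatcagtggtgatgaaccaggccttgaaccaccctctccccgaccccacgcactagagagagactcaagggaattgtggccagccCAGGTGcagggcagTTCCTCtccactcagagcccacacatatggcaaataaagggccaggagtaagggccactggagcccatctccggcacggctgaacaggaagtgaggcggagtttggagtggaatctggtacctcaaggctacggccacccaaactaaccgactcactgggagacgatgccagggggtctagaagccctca
Cd22, chr7:30878979-30879278, minus strand: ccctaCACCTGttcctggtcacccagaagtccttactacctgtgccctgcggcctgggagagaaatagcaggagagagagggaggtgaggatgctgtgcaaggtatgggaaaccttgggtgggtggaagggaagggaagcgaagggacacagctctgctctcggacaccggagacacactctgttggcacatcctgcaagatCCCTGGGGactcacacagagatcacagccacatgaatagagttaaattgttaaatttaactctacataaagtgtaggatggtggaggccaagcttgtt
Cr2, chr1:195176670-195176969, minus strand: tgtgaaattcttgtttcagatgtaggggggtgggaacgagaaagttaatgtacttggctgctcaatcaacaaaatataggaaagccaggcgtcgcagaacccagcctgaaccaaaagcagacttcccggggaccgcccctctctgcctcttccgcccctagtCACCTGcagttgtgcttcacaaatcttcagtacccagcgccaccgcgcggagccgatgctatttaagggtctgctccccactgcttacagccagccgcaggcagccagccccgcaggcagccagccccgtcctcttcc
Ebf1, second listed start site, chr11:44619978-44620277, plus strand: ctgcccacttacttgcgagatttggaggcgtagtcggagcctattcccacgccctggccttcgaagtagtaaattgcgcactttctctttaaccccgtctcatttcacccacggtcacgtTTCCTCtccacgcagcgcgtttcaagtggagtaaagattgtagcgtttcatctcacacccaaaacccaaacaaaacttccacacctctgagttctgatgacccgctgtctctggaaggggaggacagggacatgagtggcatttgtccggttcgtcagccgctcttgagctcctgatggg
The EBF core was found at position -48 of Cd22 alone among the 9 member promoters, and 13.7% of all 32851 promoters of the same length held it. The ETS motif lay at -140 of Cd79a and -130 of Ebf1, reading TTCCTC in the printed strand, and 28.3% of all promoters held it. E boxes lay at -154 of Cd79a, -245 of Cd22 and -88 of Cr2, and at -244 and -99 of 1 of the 3 Fcer2a start sites, which is 4 of the 9 promoters against 20.2% of all. The octamer ATGCAAAT was in none of the 9 and in 1.74% of all promoters. A match is a description of the letters and not a site of binding. Sequences that differ from a pattern at a fixed letter were not counted, so the lack of a match does not show the lack of a site. No motif overlapped another in the printed sequences.

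Libraries differed in tissue content before any contrast was made. A library held between 13269763 (AIA 10) and 18926894 (Control 15) recovered reads, and genes above 0 numbered 15116 in AIA 10 and 21224 to 24411 elsewhere. The libraries labelled Control 17 and Acu 4 held decidual and placental genes, with 9 and 12 of 13 above 1 FPKM and means of 4.31 and 7.04 on log2(FPKM + 1). For the 2 remaining Control libraries that mean was 0.31 and 0.41, in AIA 0.091 to 0.21 and in the other Acu libraries 0.10 and 0.18, with Prl3c1 at 0 in those 8 libraries. Fat cell genes stood at 9.09 in Control 15 and 7.15 in Control 16, with 16 of 16 above 1 FPKM in both, at 1.69 to 3.45 in AIA and at 1.75 to 3.47 in Acu. Skeletal muscle genes stood at 6.60 and 8.30 in Control 15 and 16, at 0.90 to 5.80 in AIA and at 1.01 to 6.30 in Acu. Their part in the results below was not tested. Each contrast is therefore given with all 10 libraries and again without the libraries in doubt.

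The B cell genes were abundant in 7 libraries and close to absent in 3. In Control 16, all 4 AIA libraries, Acu 6 and Acu 28 the 9 genes together took 30045 to 61092 reads, or 0.226% to 0.373% of a library. In Control 15 they took 2011 reads, of which 1848 were Ebf1, in the library labelled Acu 4 336 reads and in the library labelled Control 17 140 reads. T cell genes were low in the same 3 libraries: 14 of the 15 measured were above 1 FPKM in each of the 7 libraries, against 4 in Control 15, 6 in Control 17 and 5 in Acu 4. All labels give popliteal lymph node, and in these 3 libraries the defining lymphocyte markers were low. Because whole tissue was sequenced, fewer B cells, less RNA per B cell and RNA of another tissue cannot be told apart. The libraries labelled Control 17 and Acu 4 held Prl8a2, of the decidual and placental list, at 10739 and 3901 FPKM, although the mice are given as male. Where that RNA came from was not tested.

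**Figure D1:**
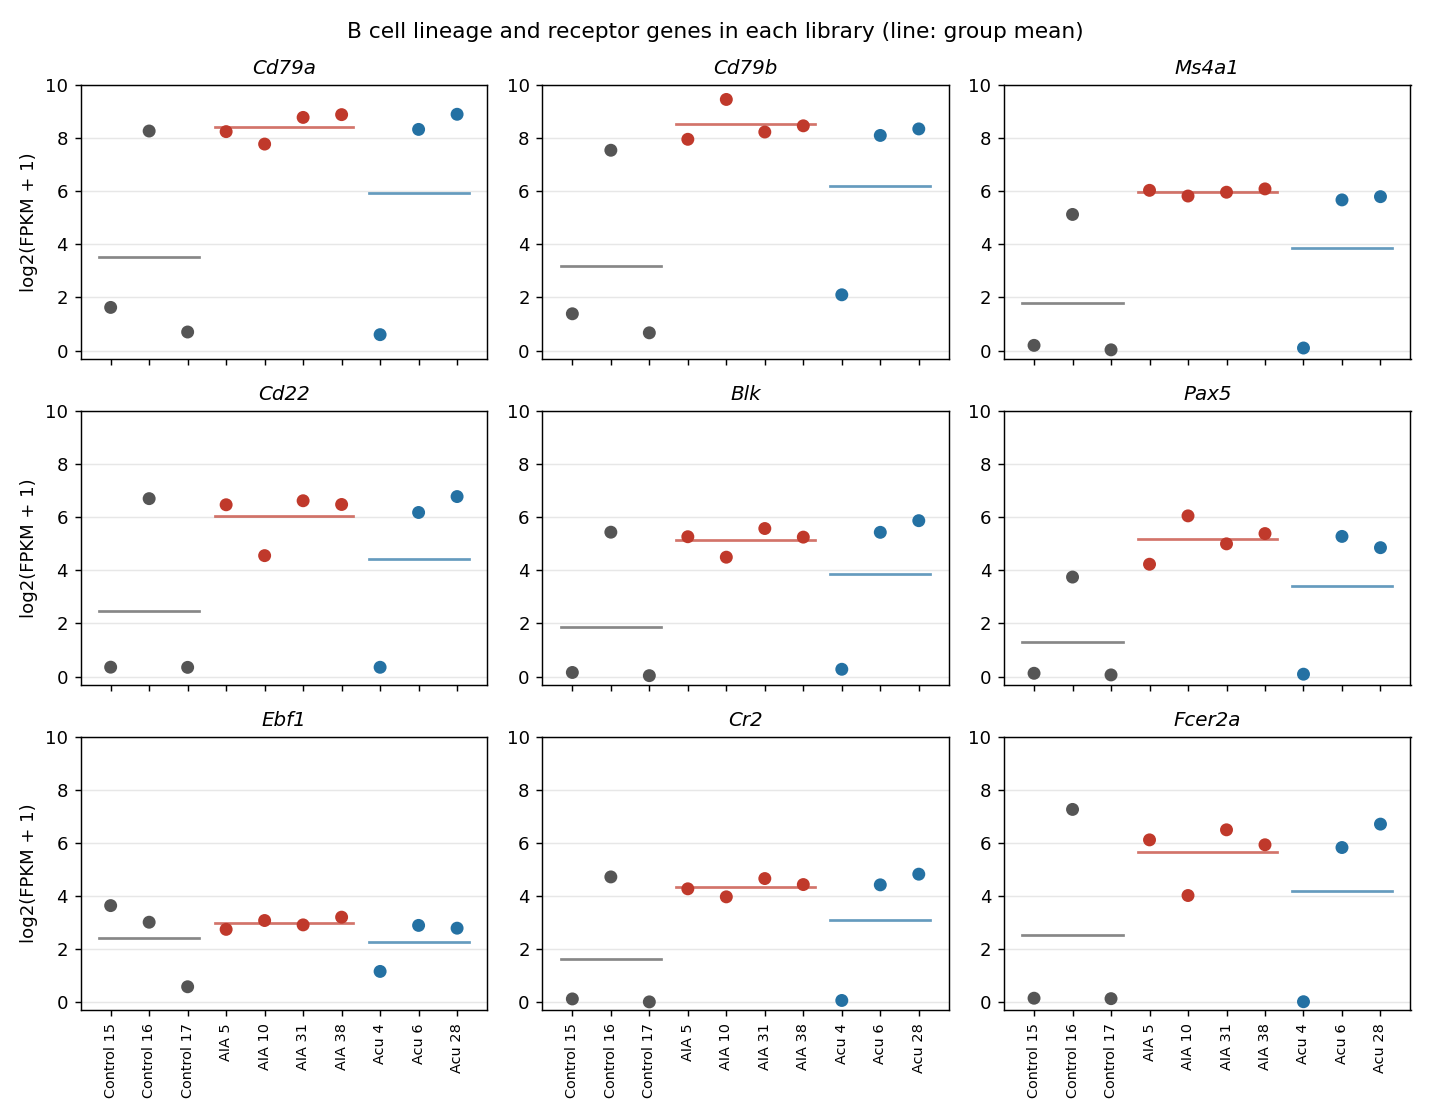
Level of each of the 9 genes, log2(FPKM + 1) on the y axis, in each of the 10 libraries on the x axis, with points coloured by group and a line at each group's mean. For 8 genes Control 15, Control 17 and Acu 4 lie far below the other 7 libraries, whereas Ebf1 is highest in Control 15.

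Cd79a and Cd79b, which encode the signalling chains of the receptor, were the most abundant of the 9 in 8 of the 10 libraries on the FPKM scale, which is per kilobase of gene. Ebf1 was above both in Control 15 and above Cd79a in Acu 4. Cd79a was 2.09, 307 and 0.626 FPKM in Control 15, 16 and 17. It was 302, 218, 438 and 471 FPKM in AIA 5, 10, 31 and 38, and 0.517, 319.9 and 475 FPKM in Acu 4, 6 and 28. Control 16 thus lay inside the AIA range, and the values of Control and of Acu spanned from near 0 to the AIA range. The means were 103 ± 176 FPKM in Control (SD, n = 3), 357 ± 118 in AIA (SD, n = 4) and 265 ± 242 in Acu (SD, n = 3).

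Cd79b was 1.62, 185 and 0.592 FPKM in the Control libraries, in the same order, and AIA had 247, 700.2, 299 and 351 FPKM. It was 3.29, 273 and 324 FPKM in the Acu libraries. Every AIA library was above every Control library, and AIA 10 was the highest of all libraries. The means were 62.5 ± 106 FPKM in Control (SD, n = 3), 399 ± 205 in AIA (SD, n = 4) and 200.2 ± 172 in Acu (SD, n = 3).

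Ms4a1 encodes CD20, a membrane protein of B cells from the pre-B stage until they become plasma cells. It was 0.147, 33.9 and 0.0211 FPKM in Control, 64.5, 55.4, 61.3 and 67.0 FPKM in AIA and 0.0711, 50.02 and 54.5 FPKM in Acu. Relative to its mean it was the steadiest of the 9 in AIA, at 62.1 ± 4.98 FPKM (SD, n = 4), and the AIA libraries did not overlap either other group. Control 16 held the highest Control value, below each AIA library and below Acu 6 and Acu 28.

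Cd22, a sialic acid binding receptor that restrains receptor signalling, was 0.277, 103 and 0.271 FPKM in Control, 87.4, 22.4, 97.2 and 88.0 FPKM in AIA and 0.274, 71.3 and 108 FPKM in Acu. Control 16 was above all 4 AIA libraries, and AIA 10 was the lowest of its group by a wide gap. Cr2, which encodes the complement receptors CD21 and CD35 and marks mature follicular and marginal zone B cells as well as follicular dendritic cells, was 0.0975, 25.5 and 0.0161 FPKM in Control. It was 18.4, 14.7, 24.4 and 20.7 FPKM in AIA and 0.0542, 20.5 and 27.4 FPKM in Acu, so Control 16 again lay above each AIA library.

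Fcer2a, the low-affinity IgE receptor CD23 of resting follicular B cells, reached its highest value in a saline library. It was 0.118, 153 and 0.105 FPKM in Control 15, 16 and 17, and 68.6, 15.3, 89.4 and 60.2 FPKM in AIA 5, 10, 31 and 38. In Acu 4, 6 and 28 it was 0.0203, 56.0 and 104 FPKM. Control 16 exceeded all AIA and all Acu libraries, and AIA 10 was again the lowest of AIA. Blk, the Src family kinase, was 0.113, 42.2 and 0.0241 FPKM in Control, 37.4, 21.5, 46.6 and 37.0 in AIA and 0.210, 42.1 and 57.4 in Acu. Control 16 lay above 3 of the 4 AIA libraries for Blk.

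Pax5, the factor that commits cells to the B lineage and activates Cd79a, was 0.0893, 12.4 and 0.0441 FPKM in Control. It was 17.7, 65.2, 30.9 and 40.7 FPKM in AIA and 0.0639, 37.7 and 27.9 FPKM in Acu. AIA did not overlap Control, and Control 16 was below Acu 6 and Acu 28 as well. Within AIA it was spread widely, at 38.6 ± 20.0 FPKM (SD, n = 4), with AIA 10 the highest.

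Ebf1, the factor that acts before Pax5 in B cell development and is also made in fat cells and stromal cells, did not follow the other 8. It was 11.5, 7.12 and 0.507 FPKM in Control, 5.74, 7.49, 6.57 and 8.26 FPKM in AIA and 1.25, 6.47 and 5.95 FPKM in Acu. Control 15, where Cd79a rested on 50 reads and Pax5 on 13, held the highest Ebf1 level of all libraries. The ratio of Pax5 to Ebf1 was 0.00775 in Control 15 and 1.74 in Control 16, and it lay between 3.09 and 8.70 in AIA, Acu 6 and Acu 28. Ebf2, a paralog used as a fat cell marker, was 6.84 FPKM in Control 15, 1.36 FPKM in Control 16 and at most 0.173 FPKM in the other 8 libraries. Across the 10 libraries Ebf1 correlated with the mean of the other 8 genes at r = 0.594 and with the adipocyte mean at r = 0.560, both given as a description. For the other 8 genes r with the adipocyte mean lay between -0.22 and -0.039. Control 16 had an adipocyte mean of 7.15, against 1.69 to 3.45 in AIA, yet its Ebf1 level of 7.12 FPKM was inside the AIA range. How much of the Ebf1 signal came from fat or stromal cells was not tested.

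**Figure D2:**
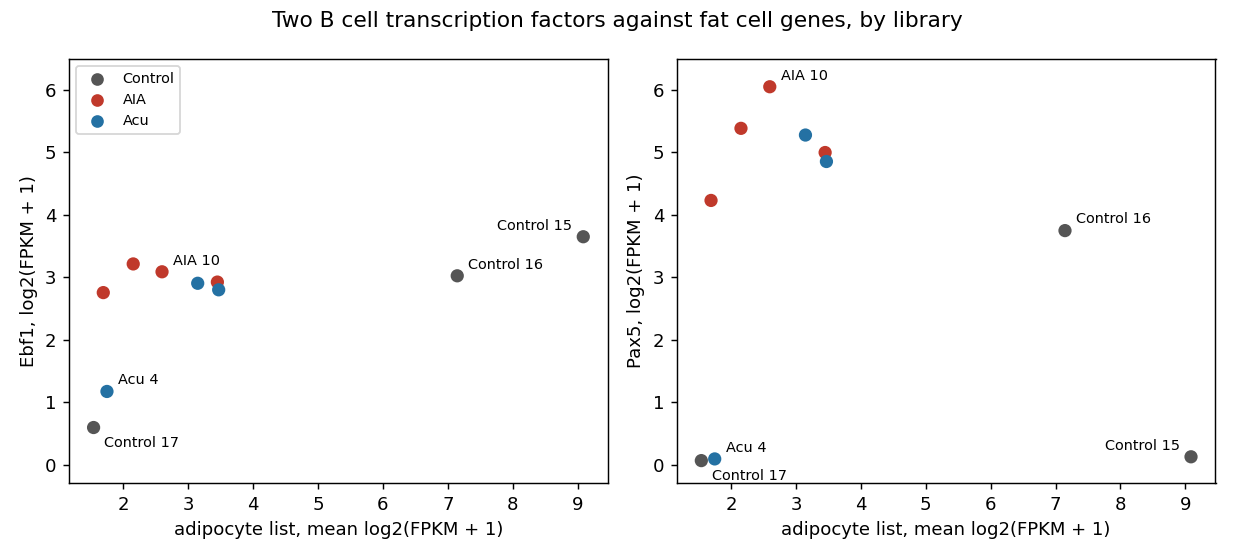
Ebf1 (left) and Pax5 (right), log2(FPKM + 1) on the y axes, against the mean log2(FPKM + 1) of 16 adipocyte genes on the x axes, 1 point per library, coloured by group. Control 15, at 9.09 on the adipocyte axis, is highest for Ebf1 and near 0 for Pax5, and Control 17 and Acu 4 are lowest for Ebf1. Control 16, at 7.15 on that axis, lies within the AIA range for Ebf1.

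The first contrast, AIA against Control, concerns the effect of the adjuvant on the node. Cd79b stood 5.32 higher in AIA as a log2 fold change on log2(FPKM + 1) (SE 1.81, limma adjusted p = 0.125). Pax5 stood 3.85 higher (SE 1.28, limma adjusted p = 0.121), and Ms4a1 4.19 higher (SE 1.51, limma adjusted p = 0.139). Cd79a stood 4.89 higher with an interval from 0.088 to 9.69 (95%, SE 2.15, limma adjusted p = 0.194). The interval of each of the other 5 included 0, and their values were 3.56 for Cd22, 3.27 for Blk, 3.12 for Fcer2a, 2.71 for Cr2 and 0.57 for Ebf1, at limma adjusted p-values of 0.215 to 0.620. The pseudocount of 1 makes the differences of these genes smaller than the true ones wherever a library is near 0.

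With a threshold of 0.05 on the adjusted p, limma called 0 of the 9 genes, and 4 of 17010 genes in all, or 0.0235%. At an unadjusted p under 0.05 there were 4 of the 9 (Cd79a, Cd79b, Ms4a1 and Pax5), beside 25.0% of all genes tested. Array weights, by which limma gives each library a weight of its own, called 5 (Ms4a1, Pax5, Cd79b, Cd79a and Blk, limma adjusted p = 0.0233 to 0.0456) beside 19.5% of all genes, and voom on the recovered reads called 0 beside 0%. Leaving out the library labelled Acu 4, which is in neither group but sets the shared spread, gave 3 calls (Pax5, Ms4a1 and Cd79b, limma adjusted p = 0.0267 to 0.0451) beside 10.3% of 16498 genes. AIA lay wholly above Control for 3 (Cd79b, Ms4a1 and Pax5), beside 11.4% of all genes, and wholly below for none of the 9, beside 13.8%. The 9 genes had a median log2 fold change of 3.56 and all 9 were above 0, whereas all genes tested had a median of -0.067 with 46.5% above 0. The 7 libraries rich in B cell genes were enough for each of the 9 to pass the filter of 0.5 FPKM in 3 libraries, and 4 of the 7 are AIA. The counts are thus descriptions and not support for a change.

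Without the libraries labelled Control 17 and Acu 4, Pax5 stood 3.22 higher in AIA (SE 0.91, limma adjusted p = 0.0509), Ms4a1 3.30 higher (SE 1.08, limma adjusted p = 0.0796) and Cd79b 4.05 higher (SE 1.39, limma adjusted p = 0.0910). limma then called 0 of the 9 genes, beside 13.5% of 16068 genes, and 4 had an unadjusted p under 0.05, beside 30.3%. Control 15, with little lymphocyte RNA, is still in that fit. It was left out next for that reason, a choice made after the levels of the 9 genes were seen. Control 16, which also held fat and muscle genes, was kept. Without Control 15 as well, Control is a single library, Control 16, which the fit assumes to vary like the other groups. Pax5 then stood 1.38 higher (SE 0.65, limma adjusted p = 0.368), Cd79b 0.94 (SE 0.65, limma adjusted p = 0.551) and Ms4a1 0.81 (SE 0.33, limma adjusted p = 0.293). Cd79a stood at 0.11, Ebf1 at -0.066, Blk at -0.33, Cr2 at -0.43, Cd22 at -0.71 and Fcer2a at -1.66, with limma adjusted p-values of 0.455 to 0.956. Again 0 of the 9 were called, beside 3.10% of 15652 genes, and Ms4a1 alone had an unadjusted p under 0.05, beside 15.9%. With AIA 10 left out in addition, a choice made after seeing the data, Ms4a1 stood 0.93 higher (SE 0.22, limma adjusted p = 0.0482), the only call among the 9, beside 11.9% of 15445 genes. The direction for Cd22, Blk, Cr2, Fcer2a and Ebf1 thus turned with the libraries kept, and the values for Cd79a, Cd79b, Ms4a1 and Pax5 were smaller by more than 1.5 times. Leaving out Control 16 alone, the Control library rich in B cell genes, moved the values the other way. Cd22 then stood 5.68 higher, Fcer2a 5.49, Blk 5.05 and Cr2 4.26, each over 1.5 times the value with all libraries. For the 9 genes but Ebf1 the limma adjusted p-values were 0.0702 to 0.0825, and 0 of the 9 and 0% of 16589 genes were called.

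**Figure D3:**
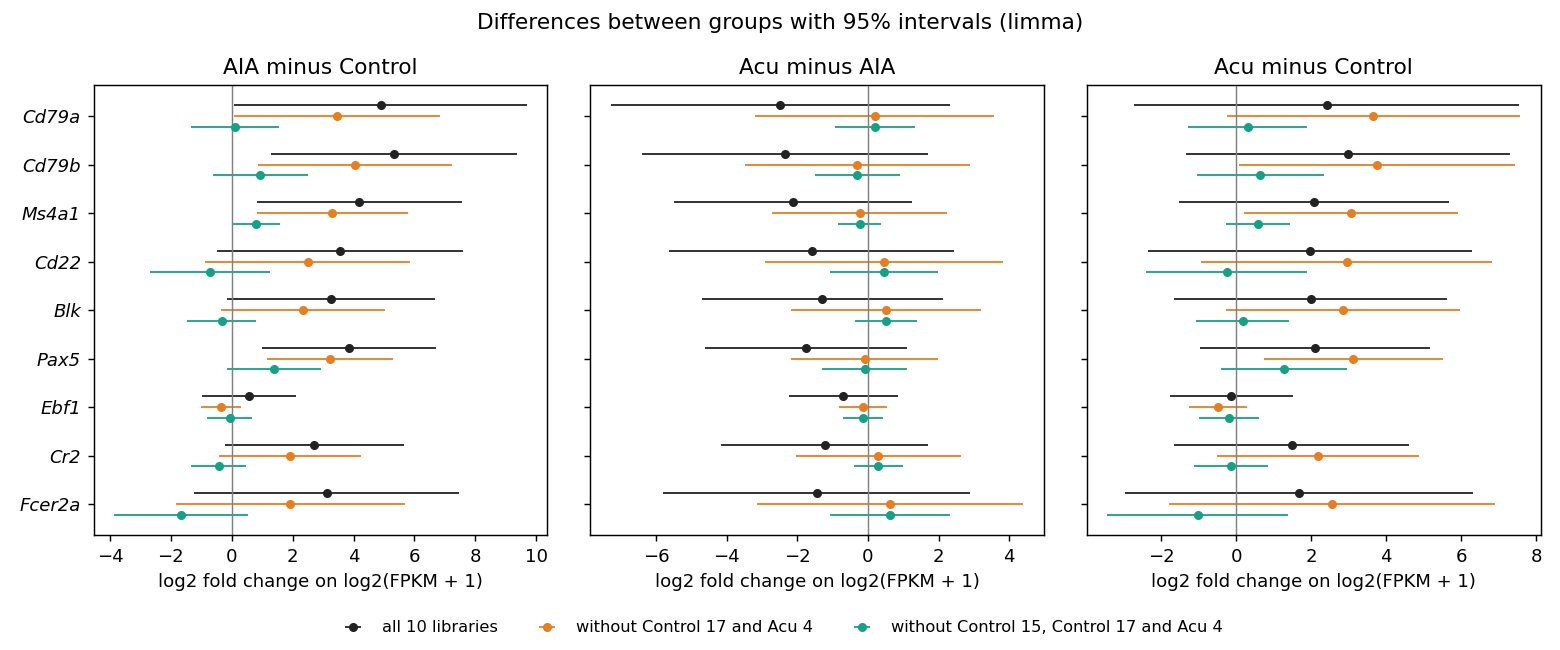
Log2 fold changes on log2(FPKM + 1) of the 9 genes (x axes) in the 3 contrasts, with 95% intervals from limma, for all 10 libraries, without Control 17 and Acu 4, and without Control 15 as well. In AIA minus Control the differences of all 10 libraries lie between 0.57 and 5.32, and those without the 3 libraries lie between -1.66 and 1.38.

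Acu was compared with AIA to ask what acupuncture changed under the adjuvant. All 9 genes stood lower in Acu over all libraries, from -2.48 for Cd79a (95% interval -7.28 to 2.32, limma adjusted p = 0.751) to -0.70 for Ebf1 (-2.24 to 0.84, limma adjusted p = 0.764). limma called 0 of the 9 genes and 0% of all genes. At an unadjusted p under 0.05 there were 0 of the 9, beside 4.70% of all genes. Ms4a1 alone lay wholly below AIA, beside 5.10% of all genes, and none lay wholly above, beside 6.04%. The library labelled Acu 4 was the lowest Acu library for each of the 9. limma's voom on the recovered reads and limma with array weights also called 0 of the 9, the latter beside 0.576% of all genes.

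Without the libraries labelled Control 17 and Acu 4 the 9 differences lay between -0.30 for Cd79b and 0.63 for Fcer2a, with a median of 0.20 beside 0.063 for all genes. Cd79a stood 0.20 higher (95% interval -3.19 to 3.58) and Blk 0.51 higher (-2.19 to 3.20), and Ms4a1 stood at -0.24 (-2.71 to 2.24). limma adjusted p-values were 0.984 to 0.995, and it called 0 of the 9 genes and 0% of 16068, with 0 of the 9 and 2.97% of all genes at an unadjusted p under 0.05. Ms4a1 was still the 1 gene whose Acu values, 50.02 and 54.5 FPKM, lay below all 4 AIA values of 55.4 to 67.0, beside 7.70% of all genes. These intervals reach beyond a change of 1 on the log2 scale in both directions for 8 of the 9 genes, Ebf1 excepted (-0.81 to 0.53). That fit holds Control 15, which is in neither group but adds to the shared spread. Leaving Control 15 out was a choice made after its low levels of these genes were seen, so the narrower intervals that follow are descriptions. Without Control 15 as well the differences were close to the same and the intervals narrower, at -0.84 to 0.36 for Ms4a1, -0.40 to 0.99 for Cr2 and -0.71 to 0.43 for Ebf1, which leave out a change of 1 either way. The interval was -0.93 to 1.32 for Cd79a, -1.50 to 0.90 for Cd79b and -0.37 to 1.39 for Blk, each reaching a change of 1 in a single direction. For Cd22 (-1.07 to 1.97), Fcer2a (-1.07 to 2.33) and Pax5 (-1.29 to 1.10) the interval included a change of 1 in both directions. limma called 0 of the 9 genes and 0% of 15652 in that fit, with 0 of the 9 and 3.39% of genes at an unadjusted p under 0.05.

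Acu was compared with Control to ask how far treated nodes lay from saline nodes. The differences ran from -0.13 for Ebf1 (limma adjusted p = 0.979) to 2.98 for Cd79b (SE 1.94, limma adjusted p = 0.741), with a median of 1.98 beside 0.020 for all genes. limma called 0 of the 9 genes and 0% of all genes, and at an unadjusted p under 0.05 there were 0 of the 9 beside 7.50%. Array weights called 2, Pax5 (limma adjusted p = 0.0405) and Cd79b (limma adjusted p = 0.0493), beside 12.2% of all genes, and voom called 0 beside 0%. No member separated the groups, beside 4.87% of genes with Acu wholly higher and 4.27% with Acu wholly lower. This contrast shares its Control libraries with AIA minus Control and its Acu libraries with Acu minus AIA, so the contrasts are not independent. Without Control 17 and Acu 4, Pax5 stood 3.12 higher (SE 1.05, limma adjusted p = 0.130), and 0 of the 9 were called beside 4.39% of genes, with 3 of the 9 and 22.7% of genes at an unadjusted p under 0.05. Without Control 15 as well it stood 1.28 higher (SE 0.71, limma adjusted p = 0.535), Fcer2a stood at -1.03 (SE 1.01, limma adjusted p = 0.741), and 0 of the 9 were called beside 0% of genes, with 0 of the 9 and 12.4% of genes at an unadjusted p under 0.05.

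Relative to Cd79a in the same library, the make-up of the B cell signal was alike in some libraries and not in others. Cd79b over Cd79a was 0.604 in Control 16 and 0.682 to 0.854 in AIA 5, 31 and 38, Acu 6 and Acu 28, but 3.21 in AIA 10. The 3 libraries with few B cell reads gave ratios that rested on 50, 14 and 12 reads of Cd79a (Control 15, Control 17 and Acu 4) and are not read further. Fcer2a over Ms4a1 was 4.51 in Control 16 and reached no more than 1.91 (0.276 to 1.91) in the 4 AIA libraries, Acu 6 and Acu 28. Cr2 over Ms4a1 was 0.751 in Control 16 and 0.266 to 0.503 in those 6 libraries, and Cd22 over Ms4a1 was 3.03 against 0.405 to 1.99. Control 16 therefore held more Fcer2a, Cr2 and Cd22 per Ms4a1 than any of them. These ratios share Ms4a1, which was lower in Control 16 (33.9 FPKM) than in those 6 libraries (50.02 to 67.0 FPKM). Over Cd79a, Control 16 had 0.499 for Fcer2a against at most 0.227 in those libraries. The gap was smaller for Cd22 (0.335 against at most 0.289) and Cr2 (0.0830 against at most 0.0676). Control 16 is a single library, so this difference has no replicate check, and it also held fat and muscle genes, as given above.

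**Figure D4:**
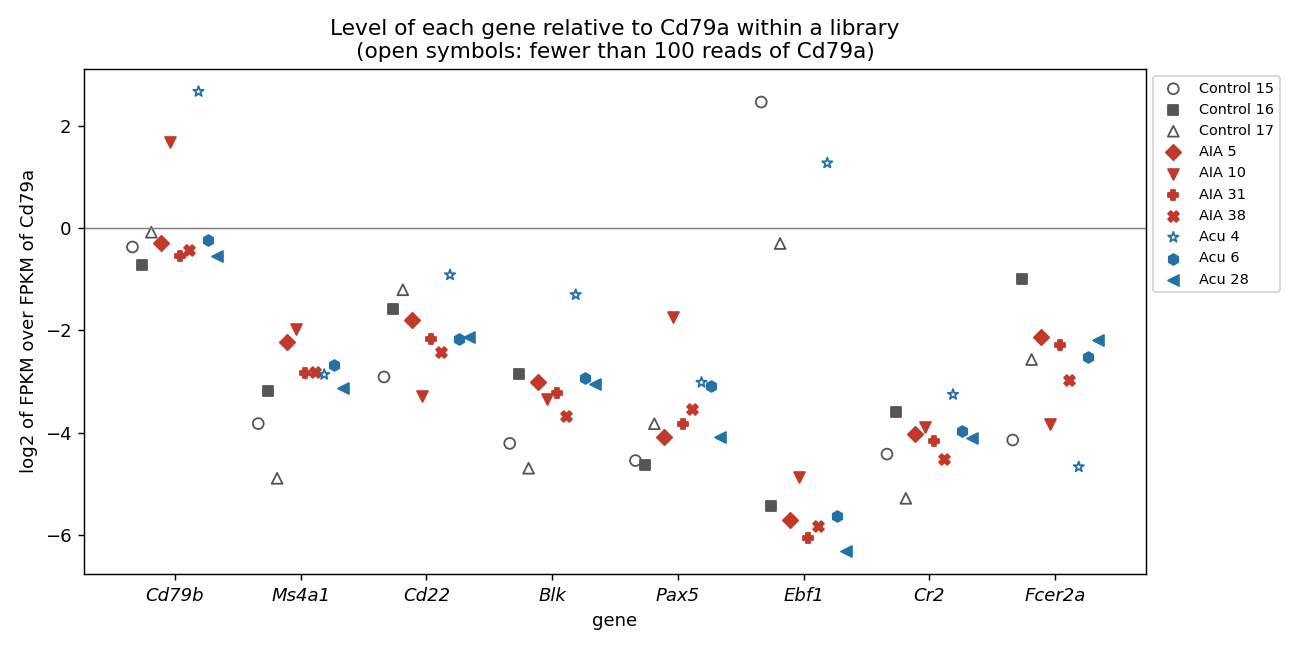
Log2 of the FPKM of 8 genes over that of Cd79a in the same library (y axis), by gene on the x axis, 1 symbol per library. Open symbols mark the 3 libraries with fewer than 100 reads of Cd79a. AIA 10 is set apart from the other AIA libraries at Cd79b, Pax5, Cd22 and Fcer2a, and Control 16 is the highest filled symbol at Fcer2a.

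AIA 10 differed from its group in opposite directions for different B cell genes. Against the mean of AIA 5, 31 and 38 on the log2(FPKM + 1) scale, Cd79b was 1.24 higher and Pax5 1.18 higher, while Fcer2a stood at -2.16, Cd22 at -1.97, Blk at -0.87 and Cd79a at -0.86. Ms4a1 (-0.21) and Ebf1 (0.12) were near their group. Among all genes tested the deviations of AIA 10 ran from -1.88 at the lower 5% to 1.64 at the upper 5%, so the values of Cd22 and Fcer2a were outside that range and the others inside. Such values were not particular to AIA 10. By the same check Pax5 in AIA 5 (-1.25, range -0.78 to 0.90) and Fcer2a in AIA 31 (1.14, range -0.71 to 0.97) were outside the range of their own library. The SD of these deviations over genes was 1.17 in AIA 10 and 0.57 to 0.61 in the other AIA libraries. AIA 10 also had the fewest reads and the fewest genes above 0, as given above, and the part of these in the deviations was not tested. Early B cell genes Vpreb1 and Vpreb2, parts of the surrogate light chain of pre-B cells, were 5.18 and 7.61 FPKM in AIA 10 and at most 0.680 and 0.159 FPKM elsewhere, while Rag1 was listed at 0 in every library. The 7 other genes of that list were not raised beyond the other libraries in AIA 10. Igll1, Rag1, Rag2 and Dntt were at 0 there, and Cd93 (3.80 FPKM) was the lowest of all libraries. Il7r (16.6 FPKM) was the lowest of AIA, and Vpreb3 (51.3 FPKM) lay within AIA.

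Other genes of the pathway were taken from lists chosen for this work. The receptor signalling list holds kinases, adaptors and coreceptors. In AIA minus Control, 19 of its 22 genes were above 0 (median 1.60) and 0 were called, beside 46.5% above 0 and 0.0235% called among all genes. Syk, the kinase that binds phosphorylated CD79 chains, stood 2.28 higher (limma adjusted p = 0.204). Cd81, a tetraspanin that many cell types make, stood at -0.91 (limma adjusted p = 0.230), with 144 FPKM in Control 15.

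Of the inhibitory receptors and phosphatases 13 of 13 were above 0 (median 2.46), of the transcription factors 16 of 17 (median 2.18) and of the survival, homing and costimulation receptors 22 of 22 (median 2.85), with 0 called in each, against the same shares of all genes. Fcrl1, a receptor restricted to B cells, was 0.171, 31.6 and 0.0549 FPKM in Control, 28.6 to 41.7 FPKM in AIA and 0.0529, 30.9 and 40.4 FPKM in Acu. Pou2af1, the octamer coactivator that germinal centre and plasma cells need, had 60.1 FPKM in Control 16, and the AIA libraries had 115 to 269.7 FPKM (log2 fold change 5.22, limma adjusted p = 0.115). Tnfrsf13c, the BAFF receptor on which mature B cells depend, had 44.7 FPKM in Control 16, and the AIA libraries had 68.8 to 139.6 FPKM (4.49, limma adjusted p = 0.136). T cell genes, which are not part of the lineage, had 14 of 14 above 0 and a median of 3.39, close to the 3.56 of the B cell genes.

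Without Control 17 and Acu 4 some genes of these lists passed in AIA minus Control although the 9 lineage genes did not. Receptor signalling had 3 of 22 higher, the adaptor Blnk (2.56, limma adjusted p = 0.0386), the phospholipase Plcg2 (2.73) and the kinase Lyn (1.51). The inhibitory list had 3 of 13 higher, the Fc receptor Fcgr2b (1.77), Ptpn22 (1.82) and Lair1 (1.38). Among 17 transcription factors Irf4, which drives plasma cell formation, rose by 2.09 (limma adjusted p = 0.0129) and Spi1, which is also made in macrophages, by 1.87, while Id3 fell by 1.28. The survival and homing list had 6 of 22 higher, among them Cd24a, Tnfrsf13b, Tnfrsf17, Cd38 and Ly86, which stood from 1.76 (Cd38) to 2.84 (Cd24a) higher. All genes tested had 4.29% higher and 9.20% lower in that fit. Without Control 15 as well, 0 genes of these 4 lists were called, beside 3.10% of all genes. In Acu minus AIA 0 genes of the 4 lists were called in any of the 3 fits, beside 0% of all genes in each.

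Macrophages also make Lyn, Spi1, Fcgr2b and Lair1. A macrophage list that holds none of these averaged 3.39 to 3.84 in Control, 4.43 to 5.18 in AIA and 4.22 to 4.97 in Acu on log2(FPKM + 1). Plasma cell genes averaged 2.15 to 2.82 in Control, 5.52 to 5.72 in AIA and 3.88 to 5.62 in Acu. They were low in Control 16 (2.44), where the 9 lineage genes averaged 5.76, within the 5.47 to 6.03 of AIA. Genes of the plasma cell list did not go together in the libraries labelled Control 17 and Acu 4. Prdm1 was 15.9 and 8.18 FPKM there, against 1.17 to 4.89 FPKM in AIA. Mzb1 was 0.432 and 5.83 FPKM there, against 852 to 1659 FPKM in AIA. Jchain, which joins IgM and IgA units in plasma cells, rose by 8.90 over all libraries (SE 0.93, limma adjusted p = 0.0297) and was 5.32 FPKM in Control 16 and at least 1534 FPKM in each AIA library. That call was lost with a pseudocount of 0.1 (limma adjusted p = 0.0515), with no filter (0.0752), with voom (0.0826) and on leaving out any 1 of Control 15, Control 16, AIA 5, AIA 31, AIA 38 or Acu 28 (0.0564 to 0.199), with a log2 fold change of 8.10 to 9.46 over all alternatives. Genes of follicular dendritic cells, which also carry Cr2, averaged 2.48 to 3.76 in Control, 3.26 to 3.72 in AIA and 3.31 to 3.58 in Acu. Genes of that list also went opposite ways in the libraries labelled Control 17 and Acu 4, which its averages hide. Coch was 49.97 and 133 FPKM there, against 2.18 to 8.15 FPKM in AIA. Madcam1 was 3.72 and 0.0437 FPKM there, against 5.46 to 12.5 FPKM in AIA. Cxcl13, the chemokine by which follicular dendritic cells draw B cells into follicles, was 5.29, 278 and 0.227 FPKM in Control. It was 116 to 362 FPKM in AIA and 0.164, 145 and 171 FPKM in Acu. The part of these cell types in the results was not tested.

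**Figure D5:**
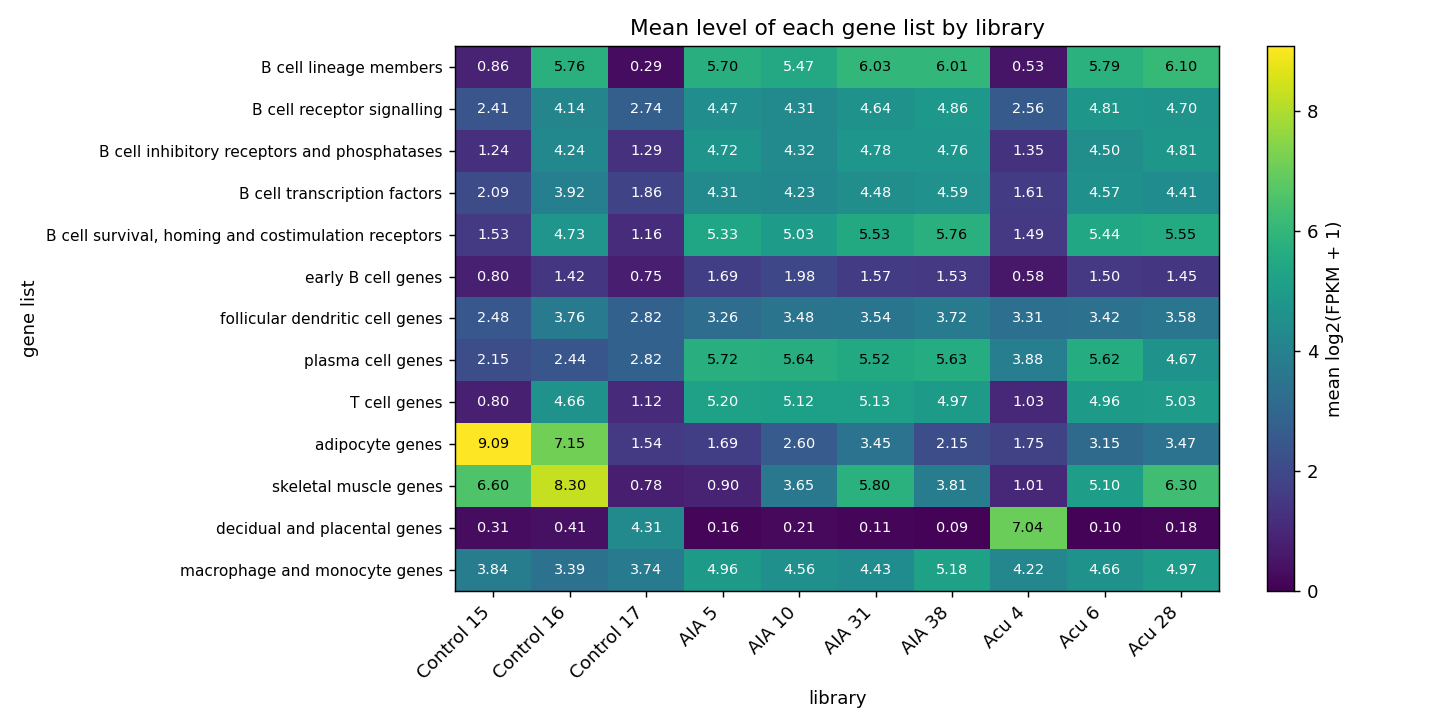
Mean log2(FPKM + 1) of each gene list (y axis) in each library (x axis), with the value in each cell and colour from low to high. The B cell and T cell lists are low in Control 15, Control 17 and Acu 4, the adipocyte list is high in Control 15 (9.09) and Control 16 (7.15), and the decidual and placental list is high in Control 17 (4.31) and Acu 4 (7.04).

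Over the 10 libraries the genes outside the list whose log2(FPKM + 1) was most like the mean of the 9 included Fcrl1 (r = 0.999), Chst3, Cd2, Kmo, Btla, Ffar1, Ccr7, Fcmr and Cd8a (r = 0.993), of 13249 genes compared. Cd8a is a T cell gene, and Cd2 is made by T cells and, in mice, also by B cells. Most lymphocyte genes of the lists were low together in Control 15, Control 17 and Acu 4, so likeness over these libraries separates B from T cell genes poorly. Each of 8 members correlated with the mean of the other 8 at 0.950 (Pax5) to 0.999 (Cd79a). Over the 7 libraries without those 3, r was 0.987 for Cd79a, 0.758 for Blk, 0.739 for Cr2, 0.540 for Cd22, 0.177 for Fcer2a and 0.073 for Ms4a1. For Ebf1, Pax5 and Cd79b it was -0.200, -0.485 and -0.575. The genes most like Ebf1 over 10 libraries were Psph (r = 0.996), Enpp2 (r = 0.978) and Xrcc6 (r = 0.977). Psph and Xrcc6 are in none of the gene lists used here. Enpp2, the enzyme autotaxin, is made in fat and stromal cells and is in the follicular dendritic cell list. It was 42.8 FPKM in Control 15 and 0.755 FPKM in the library labelled Control 17. All values of r are descriptions of these libraries.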

How the data were processed

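RNA sequencing of 10 libraries in 3 groups was analysed. For 54987 genes the authors deposited gene lengths in bases and FPKM, which are reads scaled by gene length and by a factor for each library. The submitters' processing notes name featureCounts 1.5.0-p3, HISAT2 2.0.5, DESeq2 1.16.1, StringTie 1.3.3b and mm10, with no role or order. FPKM times gene length came in whole steps for 100% of values above 0 (tolerance 0.01 of a step), which gave the reads back. Median-of-ratios factors of the deposited values were all 1, so the libraries were already on that scale. The factor of a library did not follow its total of recovered reads, under which more reads would give a smaller step. The step was 49.3 in Acu 6, with 16391068 reads, and 65.1 in Control 17, with 18731698 reads.

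limma 3.58.1 (R 4.3.3), with a mean-variance trend, fitted log2(FPKM + 1) of all 10 libraries for the 17010 genes that reached 0.5 FPKM in 3 or more libraries, and p-values were adjusted by Benjamini and Hochberg over all of them. The threshold was 0.05, SE is limma's moderated error and SD the spread between libraries. The script was tested on simulated data. Python 3.11.15, numpy 2.4.6, pandas 2.3.3 and matplotlib 3.10.9 did the rest.

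The 9 genes, the 12 other gene lists and the tests were chosen with earlier results of these data known. The text names all 9 members, up to 6 abundant genes of a list and those past the threshold in a comparison described, and the genes most like the members by Pearson r. Cd81, Syk, Fcrl1, Tnfrsf13c, Vpreb1, Vpreb2, Rag1, Ebf2, Prl3c1, Enpp2 and the overlapping genes were picked for their role or after their values were seen, as far as that rule does not name them. Groups share no replicate number. Alternatives were another pseudocount (0.1), no filter, array weights, voom on recovered reads, total-read scaling and left-out libraries. Protein sequences were not used here. Some genes that meet the rule for naming are not reported here.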

Additional observations from a re-analysis of the deposited data

Results flagged for a closer look

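In 22 checks of the 4 AIA libraries, for the 9 genes and the gene lists, a single library stood apart by Dixon's criterion in 2, and chance gives about 1 in 20. Cd22, the inhibitory coreceptor, was 4.55 on log2(FPKM + 1) in AIA 10, against 6.47 to 6.62 in AIA 5, 31 and 38. The mean of the 13 inhibitory receptors and phosphatases was 4.32 in AIA 10, against 4.72 to 4.78 in the others. The 22 checks share libraries and in part genes, so they are not independent, and the share of all genes flagged was not computed. Over all genes tested, the deviations from the rest of AIA had an SD of 1.17 in AIA 10. In AIA 5, 31 and 38 that SD was 0.57 to 0.61. AIA 10 also had the fewest recovered reads (13269763) and the fewest genes above 0 (15116). The part of these in the low values was not tested.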

How the results depend on the processing

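Of the 9 genes in 3 contrasts and 19 other settings, 45 values changed direction and 11 passed the threshold that all 10 libraries with equal weight did not pass. No paired analysis was possible because the groups share no replicate number. The cause of the changes below was not tested, apart from the fewer libraries or genes that a setting keeps. In AIA minus Control, 4 genes were called in all. The count was 0 with a pseudocount of 0.1, 1 with no filter, 3319 with array weights, 0 with voom, 27 with total-read scaling, 2167 without Control 17 and Acu 4, 485 without Control 15 as well, 1831 without AIA 10 in addition, and 0 to 1707 with each replicate left out. Of the 9 genes 5 were called with array weights, 1 without those 4 libraries and 0 to 3 with each replicate left out. In Acu minus AIA the count of all genes was 2 with no filter, 98 with array weights and 0 to 1 with each replicate left out, against 0. In Acu minus Control it was 1 with no filter, 2067 with array weights, 706 without the 2 libraries, 1002 without the 4, and 0 to 299 with each replicate left out, against 0, and array weights called 2 of the 9. AIA minus Control turned to -0.71 and -0.15 for Cd22, -0.33 and -0.0489 for Blk, -0.43 and -0.24 for Cr2, -1.66 and -1.06 for Fcer2a and -0.0662 and -0.0383 for Ebf1, without 3 and without 4 libraries. Ebf1 was also -0.0667 with array weights, -0.35 without 2 libraries and -0.34 to 1.18 with each replicate left out. Acu minus AIA turned to 0.20 for Cd79a, 0.45 for Cd22, 0.51 for Blk, 0.29 for Cr2 and 0.63 for Fcer2a without 2 and without 3 libraries. Without 4 libraries it was 0.18 for Pax5, 0.27 for Blk, 0.16 for Cr2 and 0.0754 for Fcer2a, and Pax5 was 0.0366 with array weights. With each replicate left out it ran from -3.96 to 0.19 for Cd79a, -2.77 to 0.45 for Cd22, -2.30 to 0.51 for Blk, -2.09 to 0.29 for Cr2 and -2.72 to 0.63 for Fcer2a. Acu minus Control turned to -0.26 and -0.21 for Cd22, -0.13 and -0.0860 for Cr2 and -1.03 and -0.98 for Fcer2a without 3 and 4 libraries. Ebf1 there was 0.0245 with a pseudocount of 0.1, 0.0803 with voom, 0.0768 with total-read scaling and -1.03 to 0.47 with each replicate left out. With each replicate left out, AIA minus Control ran from 3.48 to 7.25 for Cd79a, 4.06 to 7.49 for Cd79b, 3.32 to 5.86 for Ms4a1, 3.23 to 5.07 for Pax5, 2.50 to 5.68 for Cd22, 1.91 to 4.26 for Cr2, 1.93 to 5.49 for Fcer2a and 2.35 to 5.05 for Blk. Acu minus Control ran from 0.93 to 5.08 for Cd79a, 1.73 to 5.15 for Cd79b, 1.10 to 3.95 for Ms4a1, 0.80 to 4.08 for Cd22, 0.62 to 3.03 for Cr2, 0.41 to 4.04 for Fcer2a and 0.98 to 3.77 for Blk, and it reached at most 3.75 for Pax5. Its highest values came without Control 16 or Acu 4, and its lowest came without Control 17, Acu 6 or Acu 28. Total-read scaling moved the median of all genes from 0.020 to 0.21 in Acu minus Control and from 0.079 to 0.18 in Acu minus AIA. In Control 15, Control 17 and Acu 4 the levels of 8 genes rest on 75 reads or fewer.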
